A study of Mus musculus with 64 samples.

Results

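The sites at which β-catenin and LEF1 were recovered were compared in caudal epiblast-like cells (CEpiLCs), using the 3 β-catenin and the 3 LEF1 immunoprecipitation libraries of that condition, 6 of the 64 samples of the series. The question was which sites both proteins occupied and which only 1 of them did. The cells were wild-type HM1 TetON mouse embryonic stem cells (ESCs), a single line that carries the tetracycline transactivator. They were differentiated for 72 h with 10 ng/ml bFGF and 5 µM LGK974, an inhibitor of Porcupine that stops WNT secretion, and on the last day also with CHIR99021, a GSK3 inhibitor that stabilizes β-catenin. Both groups share every one of these agents and differ in the antibody alone. The study also profiled SOX2, TCF7L1 and TCF7L2 (TCF3 and TCF4 in the labels), and 3 further conditions. Naive ESCs of the same line were kept in 2i medium with 3 µM CHIR99021 and 500 nM PD0325901. SOX2-ON and SOX2-OFF cells lack endogenous SOX2, carry a doxycycline-inducible Sox2 transgene at the Hprt locus, and were differentiated like CEpiLCs with 1 µg/ml doxycycline or without it. The 3 libraries of a group are biological replicates from separate experiments, as the methods state.

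β-catenin does not bind DNA by itself. It is the transcriptional coactivator of the canonical WNT pathway and is brought to chromatin by the HMG-box factors of the TCF/LEF family, of which LEF1 is a member together with TCF7, TCF7L1 and TCF7L2. These factors recognise a short sequence, here searched as CTTTGAA or CTTTGAT on either strand. In the posterior epiblast WNT signalling turns on mesoderm and caudal genes such as T (Brachyury), Cdx2 and the Hox genes, and feedback genes such as Axin2, Nkd1, Znrf3 and Notum.

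Every library had its own peak list, called on mm10. The lists held 20453, 15201 and 10930 peaks for β-catenin replicates 1, 2 and 3, and 4443, 16518 and 20451 for LEF1 replicates 1, 2 and 3. Each list was shortened to its 4443 strongest peaks by the deposited −log10 p, so that a protein did not gain sites from a longer list. Overlapping peaks, by 1 bp or more, were joined, which gave 9322 sites. A joined site counted as shared where all 3 libraries of both proteins had a peak (1622 sites), β-catenin-only where all 3 β-catenin and no LEF1 library had one (280), and LEF1-only in the opposite case (279). Read depth is unknown from such lists, so a missing peak means a place outside the list and not an absence of protein.

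The windows below show the genome at the strongest summit, 60 bases to either side, on the plus strand of GRCm38 (mm10), named by the nearest start of a protein-coding gene. They are given because the classes differed in their letters. Capitals mark a TCF sequence. The first 4 shared sites by rank, and a shared site each of Axin2, Znrf3, Sp5, Nodal and Lef1, were chosen to show what both proteins occupied, those without capitals included.
Foxb1 (chr9:69668841-69668961): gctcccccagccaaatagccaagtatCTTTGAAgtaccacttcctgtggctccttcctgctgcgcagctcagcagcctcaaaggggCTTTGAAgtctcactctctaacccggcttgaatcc
Lrmda (chr14:22144125-22144245): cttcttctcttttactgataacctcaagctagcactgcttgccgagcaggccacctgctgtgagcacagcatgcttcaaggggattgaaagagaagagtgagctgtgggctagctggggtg
Mapkap1 (chr2:34570524-34570644): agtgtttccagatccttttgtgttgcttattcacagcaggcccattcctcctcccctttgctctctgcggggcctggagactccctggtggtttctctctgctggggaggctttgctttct
Dmgdh (chr13:93687377-93687497): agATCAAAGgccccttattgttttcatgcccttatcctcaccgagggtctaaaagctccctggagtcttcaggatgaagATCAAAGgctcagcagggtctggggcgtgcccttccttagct
Axin2 (chr11:108921201-108921321): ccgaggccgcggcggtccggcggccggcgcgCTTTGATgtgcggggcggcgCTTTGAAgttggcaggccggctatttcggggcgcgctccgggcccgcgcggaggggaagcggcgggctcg
Znrf3 (chr11:5411764-5411884): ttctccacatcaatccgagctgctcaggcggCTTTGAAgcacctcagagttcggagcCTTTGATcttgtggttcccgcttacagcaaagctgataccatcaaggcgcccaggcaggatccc
Sp5 (chr2:70443819-70443939): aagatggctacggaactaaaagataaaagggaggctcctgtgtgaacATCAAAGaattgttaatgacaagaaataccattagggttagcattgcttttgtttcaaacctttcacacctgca
Nodal (chr10:61406114-61406234): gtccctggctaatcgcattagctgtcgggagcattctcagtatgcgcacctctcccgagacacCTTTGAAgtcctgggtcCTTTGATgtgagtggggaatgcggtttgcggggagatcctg
Lef1 (chr3:131106023-131106143): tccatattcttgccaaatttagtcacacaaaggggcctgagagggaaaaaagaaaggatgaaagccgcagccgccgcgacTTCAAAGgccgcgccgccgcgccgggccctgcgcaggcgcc

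The next windows are the first 4 β-catenin-only sites by rank that were missing from every LEF1 peak deposited and held no exon, to show the absence of a TCF sequence. The last 2 of them are the first of that kind that did hold one, picked after their letters were seen.
Ddc (chr11:11886140-11886260): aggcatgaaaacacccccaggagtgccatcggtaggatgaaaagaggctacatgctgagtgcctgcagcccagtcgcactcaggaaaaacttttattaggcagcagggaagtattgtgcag
Dlg1 (chr16:31589648-31589768): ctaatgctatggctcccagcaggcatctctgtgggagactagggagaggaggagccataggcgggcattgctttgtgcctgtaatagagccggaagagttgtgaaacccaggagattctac
Arhgef19 (chr4:141270222-141270342): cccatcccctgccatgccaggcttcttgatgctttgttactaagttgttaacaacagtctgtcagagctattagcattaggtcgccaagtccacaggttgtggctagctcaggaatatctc
Derl1 (chr15:57858421-57858541): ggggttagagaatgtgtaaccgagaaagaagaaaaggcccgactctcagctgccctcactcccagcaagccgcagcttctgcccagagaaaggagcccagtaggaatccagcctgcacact
Lrrn2 (chr1:132880718-132880838): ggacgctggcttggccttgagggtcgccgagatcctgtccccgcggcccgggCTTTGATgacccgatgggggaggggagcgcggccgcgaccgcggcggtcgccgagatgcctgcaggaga
Lats1 (chr10:7681767-7681887): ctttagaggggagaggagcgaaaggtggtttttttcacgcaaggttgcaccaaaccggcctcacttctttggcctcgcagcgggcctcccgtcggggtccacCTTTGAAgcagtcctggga

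The last windows are LEF1-only sites that were missing from every β-catenin peak deposited, the first 3 by rank with a TCF sequence, no exon and none of the repeat words described further on, again picked after their letters were seen.
Spata20 (chr11:94486193-94486313): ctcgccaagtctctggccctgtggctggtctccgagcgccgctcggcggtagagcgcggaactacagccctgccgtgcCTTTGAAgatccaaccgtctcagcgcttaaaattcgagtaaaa
Foxa2 (chr2:148114664-148114784): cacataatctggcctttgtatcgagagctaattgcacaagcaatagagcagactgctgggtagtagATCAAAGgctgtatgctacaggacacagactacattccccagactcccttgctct
Tex33 (chr15:78369064-78369184): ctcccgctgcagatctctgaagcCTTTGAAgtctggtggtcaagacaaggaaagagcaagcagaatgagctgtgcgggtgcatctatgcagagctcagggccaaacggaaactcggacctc

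Most of what both proteins occupied most strongly was the same. Of the 9322 merged sites, 17.4% were shared, 3.0% were β-catenin-only and 2.99% were LEF1-only. Shared sites made up 58.4% of the 2777 sites in all 3 β-catenin libraries and 73.1% of the 2220 sites in all 3 LEF1 libraries. Sites in all 3 β-catenin libraries were in 2 LEF1 libraries in 514 cases, in 1 in 361 and in none in 280. Sites in all 3 LEF1 libraries were in 2 β-catenin libraries in 198 cases, in 1 in 121 and in none in 279. A further 3626 sites came from 1 library alone.

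**Figure D1:**
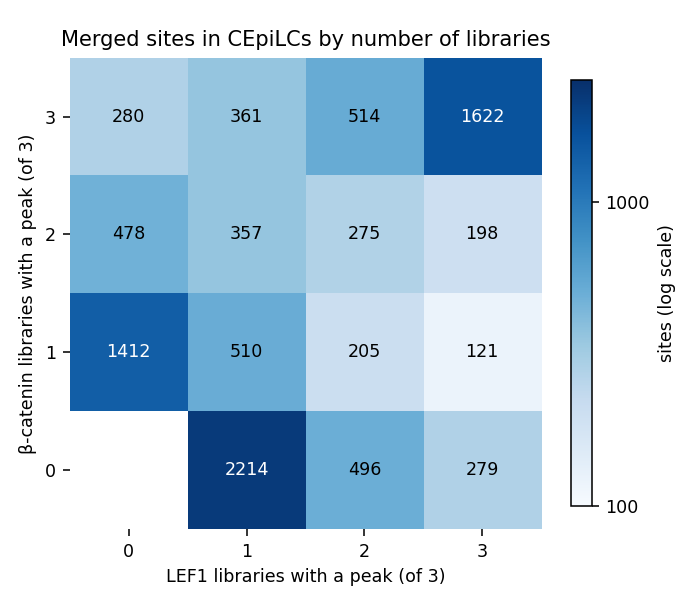
Number of merged sites by how many of the 3 β-catenin libraries (vertical axis) and how many of the 3 LEF1 libraries (horizontal axis) had a peak there, colour on a log scale. The 1622 shared sites are at the top right, the 280 β-catenin-only sites at the top left and the 279 LEF1-only sites at the bottom right.

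The count of every class rose with any single library left out. Only the remaining libraries then had to meet the rule, so it was looser. Dependence on a particular library was not tested. Without β-catenin replicate 1 the β-catenin-only sites numbered 476, without β-catenin replicate 3 they numbered 451, and without LEF1 replicate 2 the LEF1-only sites numbered 537. The 1622 shared sites became 1670 to 1859 without any single library. LEF1 replicate 1 had the shortest list, and all of it was used, down to a −log10 p of 4.72, against 11.3 to 21.9 in the other 5 libraries. The peaks used were also wider for β-catenin, with medians of 541, 374 and 317 bp in replicates 1 to 3, than for LEF1, with 216, 287 and 297 bp. With intervals of 100 bp around the summits in their place, the counts were 1535, 290 and 272. Without LEF1 replicate 1, and with lists of 10930 peaks, 3362 shared, 875 β-catenin-only and 667 LEF1-only sites were found.

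Few sites of a single protein were missing from all peaks of the other. Of the 280 β-catenin-only sites, 102 lay in the full list of 2 LEF1 libraries, 114 in that of 1 and 64 in none. LEF1 replicate 1 could not add to these, since its full list was the one used. Of the 279 LEF1-only sites, 84 lay in the full lists of all 3 β-catenin libraries, 73 in 2, 75 in 1 and 47 in none. The 64 and 47 sites, 1.19% of all merged sites, are called strict here.

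The overlap of the proteins fell with the rank of the peak. Of the β-catenin peaks ranked 1 to 500, 97.8% were overlapped by a LEF1 list, against 99.9% by another β-catenin list, as means over pairs of libraries. These values fell to 89.8% and 98.1% at ranks 501 to 1000, to 69.7% and 89.9% at 1001 to 2000, and to 38.6% and 55.7% at 2001 to 4443. LEF1 peaks lay in a β-catenin list in 91.4%, 86.3%, 73.3% and 40.7% of cases over the same bins, and in another LEF1 list in 97.8%, 93.9%, 77.8% and 41.9%. At the lowest ranks, a LEF1 peak was thus found in β-catenin lists over a range of pairs (35.4% to 46.0%) that included the whole range of other LEF1 lists (40.3% to 43.8%).

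**Figure D2:**
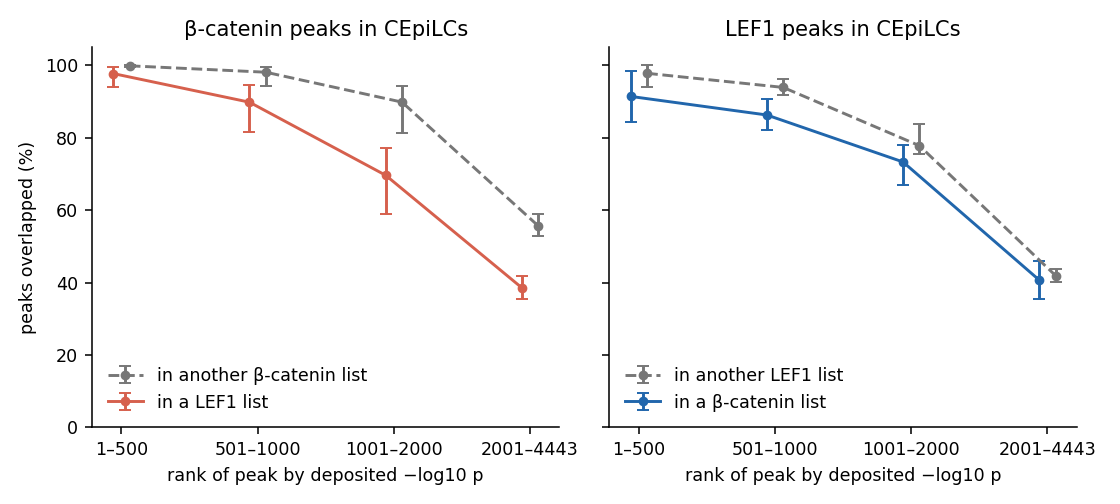
Percentage of peaks overlapped by another list (vertical axis) in 4 bins of rank (horizontal axis), for β-catenin peaks on the left and LEF1 peaks on the right. Points are means over pairs of libraries and bars run from the lowest to the highest pair, with lists of the other protein in colour and lists of the same protein in grey; β-catenin peaks ranked 2001 to 4443 were overlapped by LEF1 lists in 38.6% and by β-catenin lists in 55.7%.

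Over whole lists, the Jaccard index (shared bases over all bases covered) averaged 0.457 between β-catenin libraries, 0.385 between LEF1 libraries and 0.329 between the proteins, where it ran from 0.245 to 0.391. Pairs of one protein exceeded pairs of different proteins by 0.0919, with an exact one-sided permutation p of 0.1, the smallest that 3 against 3 libraries can give. The ranges overlapped, since the lowest LEF1 pair stood at 0.368. The peaks used covered 2.78, 1.94 and 1.63 Mb in β-catenin replicates 1 to 3 and 1.12, 1.48 and 1.54 Mb in LEF1 replicates 1 to 3. Unequal cover limits how high the index of a pair can be. Its part in the difference was not tested. At shared sites the summits of the 2 proteins lay a median of 21 to 25 bp apart over the 9 pairs of libraries, against 18 to 19 bp between β-catenin libraries and 23 to 26.5 bp between LEF1 libraries. The spacing between proteins overlapped that of LEF1 against itself and was above that of β-catenin against itself.

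The TCF sequence was at fewer β-catenin peaks than LEF1 peaks. Within 100 bp of the summit it was found at 50.6%, 54.0% and 50.5% of the peaks of β-catenin replicates 1, 2 and 3, and at 60.6%, 60.2% and 63.7% of those of LEF1 replicates 1, 2 and 3. No β-catenin library reached the lowest LEF1 library. The difference was −9.82 percentage points (means 51.7% ± 2.03 and 61.5% ± 1.91, SD, n = 3), with an exact two-sided permutation p of 0.1, the smallest possible, and 0.25 after adjustment over the 10 sequences searched. In windows 5 kb away the sequence was at 8.51% and 8.12%, and it was at 4.27% of windows of the same length at the starts of all 21951 protein-coding genes.

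The strongest peaks did not show this gap. At ranks 1 to 500 the TCF sequence was at 67.4%, 74.0% and 72.6% of β-catenin peaks and at 65.0%, 75.0% and 72.8% of LEF1 peaks, so the libraries overlapped. The share then fell faster for β-catenin, to 60.1%, 55.3% and 44.5% in the 3 lower bins, than for LEF1, to 68.2%, 65.1% and 56.7%, and in each of these 3 bins the libraries of the proteins did not overlap. Among the classes the TCF sequence was at 1126 of 1622 shared sites (69.4%), at 181 of 279 LEF1-only sites (64.9%) and at 74 of 280 β-catenin-only sites (26.4%). It was at 10 of the 64 strict β-catenin-only sites (15.6%) and at 24 of the 47 strict LEF1-only sites (51.1%). Over all merged sites it was at 51.3%, so the 47 strict LEF1-only sites were at the background, the shared and all LEF1-only sites above it and the β-catenin-only sites below it. Of these 47, 12 held a repeat word described further on. Without them the TCF sequence was at 22 of 35 (62.9%), against 51.8% of merged sites without such a word. Shared sites held 2 or more copies in 16.6% of cases, LEF1-only sites in 10.4% and β-catenin-only sites in 3.21%, and where a copy was present its median distance from the summit was 22, 21 and 23.5 bp.

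The form of the TCF sequence also differed. Read on the strand that begins with CTTTGA, the letters CTTTGATC were at 24.2%, 25.3% and 24.3% of the TCF-bearing peaks of β-catenin replicates 1 to 3 and at 32.9%, 31.8% and 33.6% of those of LEF1. The groups did not overlap, and the difference was −8.17 percentage points (24.6% ± 0.603 and 32.8% ± 0.917, SD, n = 3; exact two-sided permutation p = 0.1, adjusted 0.114 over 8 forms). The libraries also did not overlap in any of the 4 bins of rank, from 16.0% to 20.2% against 27.5% to 31.7% at ranks 1 to 500, to 24.4% to 27.7% against 33.2% to 36.3% at ranks 2001 to 4443. This form was counted after the printed windows had been read, so the comparison was chosen with the data in view.

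By class, CTTTGATC was at 95 of the 181 LEF1-only sites with a TCF sequence (52.5%), at 320 of the 1125 shared sites whose following base could be read (28.4%) and at 9 of 74 β-catenin-only sites (12.2%), against 30.9% over all merged sites with a TCF sequence. Among the strict sites it was at 15 of 24 LEF1-only and 2 of 10 β-catenin-only sites. CTTTGAAG moved the other way, from 33.0% of shared sites and 31.1% of β-catenin-only sites to 24.9% of LEF1-only sites. For comparison, CTTTGATC made up 11.4% of TCF sequences in windows 5 kb from the sites and 10.7% at gene starts. The form was not higher for LEF1 in the other 3 conditions, where it averaged 24.3% for β-catenin and 23.5% for LEF1 (exact permutation within conditions, p = 0.639) and the 9 LEF1 libraries ran from 16.9% to 28.7%. In CEpiLCs, it was at 21.9% to 25.2% of TCF-bearing peaks of TCF7L1 and TCF7L2 and at 15.4% to 17.5% of those of SOX2. The 3 LEF1 libraries were thus above all 12 others of that condition. These shares rest on unequal numbers of TCF-bearing peaks. LEF1 lists held 2675 to 2830 in CEpiLCs but 361 to 1855 in the other conditions, where β-catenin lists held 1731 to 2591. In CEpiLCs, SOX2 lists held 727 to 777, TCF7L2 lists 878 to 1024 and TCF7L1 lists 628 to 1782. With fewer such peaks, copies of the background, at 11.4%, can weigh more. Their part was not tested.

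**Figure D3:**
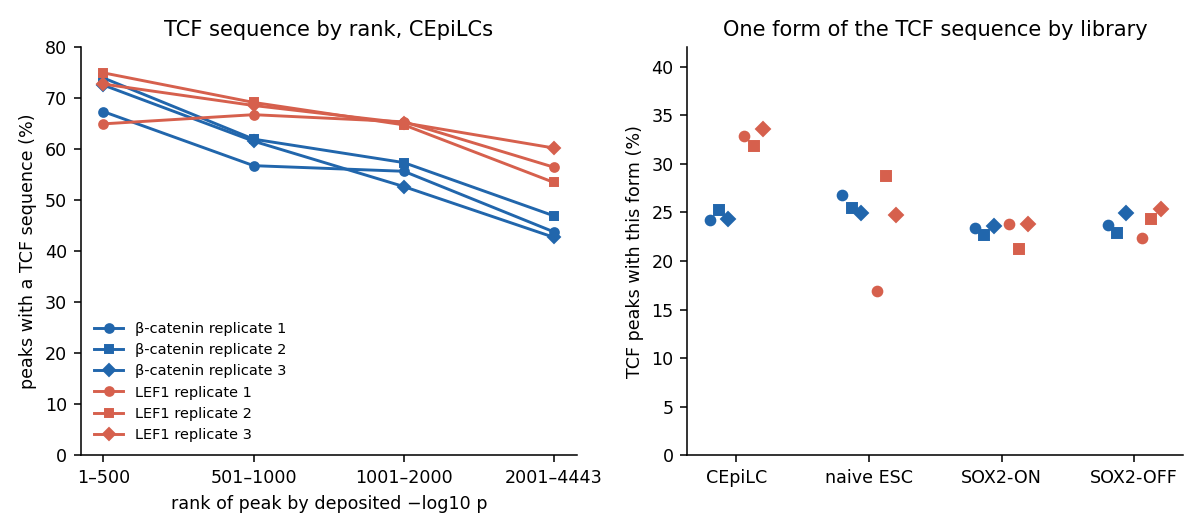
Left, percentage of peaks with a TCF sequence within 100 bp of the summit in 4 bins of rank, 1 line per CEpiLC library. Right, percentage of TCF-bearing peaks with the form whose last letters are T and C, 1 point per library in each condition (circle, square and diamond are replicates 1, 2 and 3; blue, β-catenin; red, LEF1), where the CEpiLC LEF1 libraries lie at 31.8% to 33.6% and the CEpiLC β-catenin libraries at 24.2% to 25.3%.

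Other sequences differed less. GGGCGG, to which SP and KLF factors bind, was at 17.0% ± 1.71 of β-catenin and 14.1% ± 0.206 of LEF1 peaks (SD, n = 3), without overlap and with an exact permutation p of 0.1 and an adjusted p of 0.25. It was at 30.4% of β-catenin-only, 15.8% of LEF1-only and 14.2% of shared sites, against 16.0% of all merged sites. Among strict sites it was at 28 of the 64 β-catenin-only but 1 of the 47 LEF1-only sites. It was also at 40.0% of all gene starts, and β-catenin-only sites had a GC content of 54.9%, against 51.2% and 51.1%. The AP-2 sequence (GCCNNNGGC) was at 11.5% of β-catenin and 10.3% of LEF1 peaks, and the MEIS sequence (TGACAG) at 17.4% and 16.6%. Their libraries did not overlap either (exact permutation p = 0.1 and adjusted p = 0.25 for each). SOX sequences (CATTGT or CTTTGT) were at 32.1% and 29.6% of peaks, with overlapping libraries (exact permutation p = 0.2). The share of this GC difference in the GGGCGG counts was not tested.

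Sites of a single protein lay nearer to gene starts than shared sites. A start was within 1 kb at 119 of 1622 shared sites (7.34%), 58 of 280 β-catenin-only sites (20.7%) and 58 of 279 LEF1-only sites (20.8%), and the median distance was 34.9, 21.2 and 11.4 kb. Over all merged sites these values were 13.5% and 27.5 kb. The strict LEF1-only sites were close to that background, with 14.9% and 26.8 kb, and the strict β-catenin-only sites had 29.7% and 9.49 kb. At starts the TCF sequence was at 22.4% of β-catenin-only and 70.7% of LEF1-only sites, and away from them at 27.5% and 63.3%. Over the libraries, promoter peaks were 9.16%, 10.4% and 12.4% of β-catenin lists and 11.5%, 11.8% and 12.0% of LEF1 lists, which overlapped (exact permutation p = 0.4). That order turned with longer lists, to 3.81 percentage points more for β-catenin with up to 10000 peaks and 7.11 with all peaks.

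The first shared sites by rank stood high in both proteins. The site 92.0 kb from Foxb1, a forkhead factor gene, at chr9:69667918-69671509, had fold enrichments of 70.6, 168 and 139 in β-catenin replicates 1 to 3 and of 54.3, 131 and 114 in LEF1 replicates 1 to 3. It ranked between 1 and 3 in all 6 lists. The intronic site at Lrmda (chr14:22143283-22144701) had folds of 78.9, 176 and 181 and of 56.9, 101 and 134, and the one at Dmgdh, an enzyme of choline breakdown (chr13:93686856-93688118), 78.3, 176 and 192 and 46.5, 102 and 120. Replicate 1 had the lowest fold of its protein at each of these sites. The others of the first 8 were nearest to Mapkap1, Zfp703, 2510009E07Rik, Dmrtb1 and Cenpx, and each of the 8 was overlapped by peaks of 50 to 54 of the 54 other lists of the series.

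β-catenin-only sites were weaker. The median fold of β-catenin-only sites was 10.9, 9.47 and 8.81 in the 3 β-catenin libraries, against 20.6, 20.7 and 17.5 at shared sites. Over all peaks used it was 12.7, 11.1 and 9.39. LEF1-only sites were also below shared sites, with 7.12, 9.37 and 10.2 against 9.85, 15.0 and 15.1 in LEF1 replicates 1 to 3. The first strict site lay in an intron of Ddc, the aromatic amino acid decarboxylase (chr11:11885894-11886531), with folds of 17.1, 16.6 and 15.8 and ranks between 1004 and 1217. The site at Gjb2, which encodes connexin 26 (chr14:57104119-57105007, 27 bp from the start), had 12.1, 13.2 and 20.1, and the one in an intron of Smad7, an inhibitory SMAD (chr18:75370430-75370934), 12.9, 10.5 and 10.3. The remaining sites of the first 8 were at Syt13, Dlg1, Arhgef19, Derl1 and Akt2, and none of the 8 held a TCF sequence within 100 bp of the summit. The strongest β-catenin-only site before this stricter condition was in an intron of Unc5a, a netrin receptor gene (chr13:54955953-54956579). It had folds of 44.1, 44.4 and 37.5, and a LEF1 peak at rank 5565 of replicate 3.

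LEF1-only sites included a group of narrow peaks on repeat sequence. The first strict sites were at Drd4, Wdr3, Naa20, Fut8 and Tmem215, each 238 to 251 bp wide and without a TCF sequence near the summit. The Drd4 site had folds of 14.3, 14.3 and 30.7 in LEF1 replicates 1 to 3, and the Fut8 site 20.4, 12.3 and 31.9. The words of 10 letters that recurred at the largest numbers of the 47 strict LEF1-only sites, on either strand, were of 2 kinds. One held the end of a TCF sequence, such as AAGATCAAAG at 8 sites. The other came from the overlapping words GCTGGGATTA, CCTGTAATCC, CTGGGATTAC, CTGTAATCCC and TGGGATTACA, at 9 to 11 sites each, letters known from the short repeats that descend from the 7SL RNA gene, such as the Alu family of primates.

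At least 1 of these 5 repeat words was within 100 bp of the summit at 12 of the 47 strict LEF1-only sites (25.5%), from which the words were drawn, and at 20 of all 279 (7.17%). These 20 include the 12. A repeat word was at 8 of 1622 shared sites (0.493%), at 0 of 280 β-catenin-only sites and at 142 of all 9322 merged sites (1.52%). It was in the windows 5 kb from 7 LEF1-only sites and from 206 of all merged sites, and at 0.292% of gene starts. The 20 LEF1-only sites had a median width of 242.5 bp, against 362 bp for the class. Those at Drd4, Naa20, Tmem215 and Pdia6 were among them, and those at Wdr3 and Fut8 were not. By library, a repeat word was at 0.405%, 0.495% and 0.495% of the peaks of β-catenin replicates 1 to 3 and at 1.89%, 1.01% and 2.27% of those of LEF1. The LEF1 shares thus lay on either side of the 1.52% of merged sites and the β-catenin shares below it. Among the first 500 peaks it was at 3.2%, 1.0% and 3.0% for LEF1 and at 0 for each β-catenin library.

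The CEpiLC TCF7L1 library of replicate 1, whose list held 1628 peaks, had a repeat word at 14.2% of them, and the other 2 TCF7L1 libraries at 1.06% and 1.64%. In the other conditions the share was 0.855% to 2.68% of LEF1 and 0.495% to 1.73% of β-catenin peaks. Whether the reads behind these peaks came from these places in the mouse genome was not tested, which limits what the folds at Drd4, Naa20 and Tmem215 and the count of LEF1-only sites measure. With these sites left out, 259 LEF1-only sites remained, of which 68.7% held a TCF sequence, and the difference between the lists in that sequence was −10.5 percentage points.

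Strict LEF1-only sites without such a word included one 74 bp from the start of Spata20 (chr11:94486122-94486458; folds 6.30, 9.08 and 7.63). Another lay 67.8 kb from Foxa2, the forkhead factor of endoderm and node (chr2:148114604-148114917; folds 6.63, 10.6 and 12.3). This second site had a peak in 1 of the 54 other lists when these were shortened, near the median of 2 for strict LEF1-only sites. Foxa2 also had 3 shared sites. Both hold the TCF sequence shown above, at Foxa2 in the CTTTGATC form.

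WNT feedback and target genes were the list with most shared sites. The lists used here were drawn up with earlier results on these data known, and their counts are descriptions without a test. A shared site had its nearest start at 15 of 24 genes of this list, against 6.16% of all 21951 protein-coding genes, and assignment to the nearest start favours genes with long intergenic flanks. Axin2, the scaffold of the β-catenin destruction complex, had 5 shared sites, more than any other gene, and Sp5, Znrf3 and T had 4 each, as had Lrmda, Vwc2, Fstl4 and Tns3. The Axin2 site 0.912 kb from the start (chr11:108919803-108922503) had folds of 40.1, 41.6 and 43.5 for β-catenin and 14.2, 13.7 and 13.1 for LEF1. At Sp5, a zinc finger repressor induced by WNT (chr2:70442944-70444473), the folds were 58.9, 94.1 and 68.2 and 26.6, 60.6 and 40.8. At Znrf3, a ubiquitin ligase that removes WNT receptors (chr11:5411192-5413211), they were 29.5, 39.1 and 37.4 and 22.5, 32.1 and 31.0. Folds were called against the background of each library and are not compared between the proteins.

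Of the same list, 6 genes had a β-catenin-only site and 1 a LEF1-only site, against 1.23% and 1.26% of all genes. The β-catenin-only sites of Zfp703, Lgr5, Nkd1 and Sp8 lay 0.282, 1.14, 0.037 and 0.857 kb from the start and that of Ccnd1, cyclin D1, 2.49 kb from it. All 5 were also in the shortened lists of the 3 TCF7L2 libraries, and in those of at most 1 TCF7L1 library. The sixth site, at Tcf7l2, was in none of the TCF7L2 lists. Over the whole class, 24.6% of β-catenin-only sites were in all 3 shortened TCF7L2 lists. For TCF7L1, 64.3% of the class were in none of the shortened lists and 25.4% in 1. Presence in at most 1 TCF7L1 list thus did not set these 5 sites apart from their class. The site in an intron of Lgr5, the R-spondin receptor (chr10:115586254-115587349), had folds of 16.4, 9.90 and 9.34, one TCF sequence, and a LEF1 peak at rank 9023 of replicate 3. The Ccnd1 site (chr7:144942233-144942693; folds 7.99, 12.0 and 7.28) and the Tcf7l2 site, 152.7 kb from the start, were strict. At Zfp703 the LEF1-only site carried a repeat word.

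Among primitive streak and mesoderm genes, 15 of 33 had a shared site, 1 a β-catenin-only site and 2 a LEF1-only site. For this list and those that follow, the shares over all genes were 6.16%, 1.23% and 1.26%. The best-ranked site of T, the Brachyury factor, lay 25.3 kb from its start (chr17:8408553-8409497). It was in an intron, scored over all annotated genes and not T in particular. Folds there were 23.2, 19.8 and 16.6 for β-catenin and 12.5, 18.6 and 27.8 for LEF1. Mixl1, a homeobox gene of the streak, had 20.7, 21.9 and 29.1 and 11.4, 18.2 and 24.7. Hes7, the repressor of the segmentation clock, had 46.8, 76.7 and 89.8 and 11.0, 17.7 and 22.0. The one-protein sites were at Snai1 for β-catenin and at Eomes and Pcdh8 for LEF1, and none was strict. The LEF1-only site of Eomes was in the full lists of all 3 β-catenin libraries, at ranks 5345 to 5588.

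Of the Cdx, Hox and caudal genes 14 of 35 had a shared site, 4 a β-catenin-only site (Gbx2, Hoxd9, Hoxd1 and Hoxa2) and none a LEF1-only site. Over all genes 1.26% had a LEF1-only site, so none of 35 is near that share. At Gbx2, a homeobox gene of the posterior epiblast and later hindbrain, the shared site (chr1:89933695-89936800) had folds of 49.1, 108 and 93.4 and of 44.9, 80.5 and 72.4, and ranked between 6 and 24 in every list. At Cdx2 the folds were 32.7, 38.6 and 39.3 and 9.76, 18.2 and 16.0.

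Epiblast genes had a shared site in 8 of 26 cases, a β-catenin-only site in 4 (Sox2, Sox3, Spry2 and Etv4) and a LEF1-only site in none. None of 26 is again near the 1.26% of all genes. The Sox2 site, 15.0 kb from the start (chr3:34664916-34665726), had folds of 18.4, 17.9 and 15.0, was in all 3 shortened TCF7L2 lists, and had a LEF1 peak at rank 9916 of replicate 3. Naive pluripotency genes had a shared site in 5 of 16 cases. The strict β-catenin-only site of that list was nearest to Nanog, the homeobox factor of the naive state, 35.2 kb from its start (chr6:122742364-122742882; folds 14.4, 10.1 and 9.24).

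Neural genes had a shared site in 7 of 20 cases, a β-catenin-only site in 1 (Pou3f2) and a LEF1-only site in 3, which were Hes3, Hes5 and Rfx4. Hes3 and Hes5 encode Notch-regulated repressors, and their sites lay 2.66 and 2.45 kb from the start. The Hes3 site was strict, with folds of 6.07, 8.76 and 10.2, and the Hes5 site had peaks in the full lists of all 3 β-catenin libraries. Endoderm genes had a shared site in 2 of 10 cases. Over all protein-coding genes the shares with a shared, β-catenin-only and LEF1-only site were 6.16%, 1.23% and 1.26%. Of the 269 genes nearest to a β-catenin-only site 23.8% also had a shared site, and of the 276 nearest to a LEF1-only site 15.6%, against 6.16% of all genes. A site of each protein alone was at 13 genes. These were 4.83% of the 269, against 1.26% of all genes with a LEF1-only site. They were 4.71% of the 276, against 1.23% of all genes with a β-catenin-only site.

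The other proteins profiled in CEpiLCs divided over the classes, again in lists of at most 4443 peaks. SOX2 replicates 1, 2 and 3 overlapped 31.8%, 31.8% and 37.9% of β-catenin-only sites and 17.6%, 4.30% and 3.23% of LEF1-only sites, against 43.3%, 44.2% and 53.0% of shared sites. TCF7L2 overlapped 38.2%, 31.4% and 36.4% of β-catenin-only and 24.7%, 7.53% and 9.32% of LEF1-only sites. Every library of these proteins was higher on the β-catenin-only sites. TCF7L1 overlapped 2.50%, 25.7% and 19.3% of β-catenin-only and 19.0%, 14.7% and 26.5% of LEF1-only sites, against 40.9%, 78.2% and 80.1% of shared sites. Over all merged sites the share ran from 21.3% to 23.4% for SOX2, from 11.7% to 26.5% for TCF7L1 and from 15.2% to 21.7% for TCF7L2, so that the LEF1-only means of TCF7L1 (20.1%) and TCF7L2 (13.9%) lay near the background and that of SOX2 (8.36%) below it. The TCF7L1 libraries split, with a mean difference of −4.24 percentage points that became 1.89 without replicate 1 and −1.16 without the sites with repeat words. Median site widths were 774.5, 508.5 and 362 bp for shared, β-catenin-only and LEF1-only sites, and a wider site can meet more peaks. The part of width in these overlaps was not tested.

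**Figure D4:**
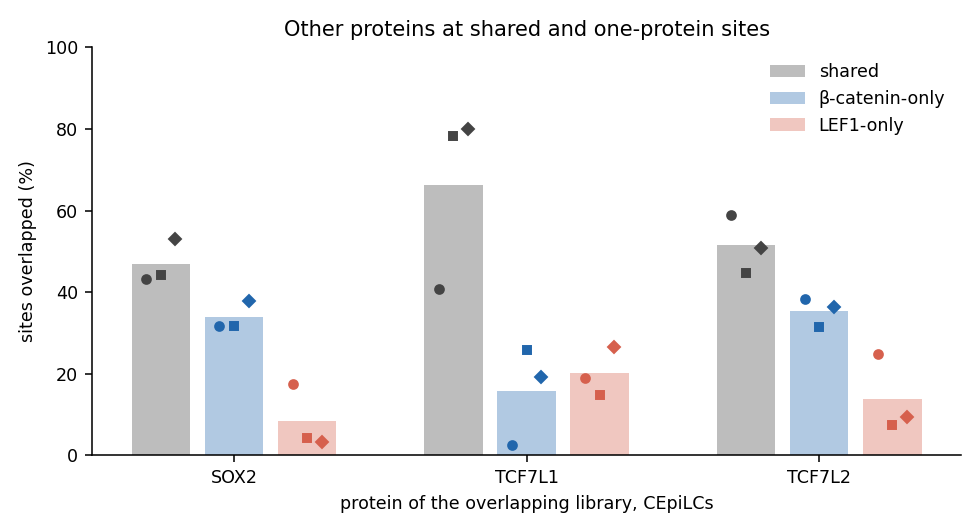
Percentage of the 1622 shared, 280 β-catenin-only and 279 LEF1-only sites (vertical axis) overlapped by the shortened lists of SOX2, TCF7L1 and TCF7L2 in CEpiLCs. Bars are means and points the 3 libraries (circle, square and diamond, replicates 1, 2 and 3); SOX2 and TCF7L2 are higher on β-catenin-only than on LEF1-only sites in each library, TCF7L1 is not.

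The classes differed in how often they were found elsewhere. Over the 54 other lists, shortened in the same way, a shared site was in a median of 21, a β-catenin-only site in 8 and a LEF1-only site in 2. In none of the 54 were 7 shared, 15 β-catenin-only and 55 LEF1-only sites, the last being 19.7% of the class. Over all merged sites the median was 4 lists and 22.3% were in none, so LEF1-only sites were close to the background and shared and β-catenin-only sites above it. The order of these medians is also that of the site widths given above, and the part of width was not tested.

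Libraries that had no part in defining the one-protein classes overlapped them unequally. A class index was computed for each β-catenin and LEF1 library of the other 3 conditions, as the log2 ratio of the odds of overlapping a β-catenin-only site to those of overlapping a LEF1-only site, with 0.5 added to each count. In naive ESCs the index was 1.94, 1.98 and 1.70 for β-catenin and −4.34, −1.37 and −1.97 for LEF1. The value of −4.34 rested on few sites, 1 β-catenin-only and 27 LEF1-only. In SOX2-ON cells the index was 2.88, 2.86 and 2.46 against −2.36, 0.32 and −1.28, and in SOX2-OFF cells 3.09, 3.00 and 3.48 against −2.85, −1.62 and −1.09. The value of 0.32 rested on 15 β-catenin-only and 12 LEF1-only sites. All 9 β-catenin libraries were above all 9 LEF1 libraries, of which 8 were below 0. A positive index was not particular to β-catenin. In the same conditions it was 1.25 to 3.82 for SOX2 libraries and 0.03 to 2.62 for TCF7L2 libraries. The difference between β-catenin and LEF1 was 4.44, with an exact two-sided permutation p of 0.00025, the smallest that the 8000 assignments within conditions allow. It was 4.44 in naive ESCs, 3.84 in SOX2-ON and 5.05 in SOX2-OFF cells, each with an exact permutation p of 0.1, the smallest for 3 against 3. Differences between conditions in this contrast did not pass an exact permutation test (adjusted p = 0.69 for each of the 3 pairs). Without the sites with repeat words the overall difference was 4.16. β-catenin libraries overlapped on average 16.4%, 24.8% and 44.6% of β-catenin-only sites in naive ESCs, SOX2-ON and SOX2-OFF cells. Over all merged sites it was 17.2%, 21.7% and 31.3%. LEF1 libraries overlapped 13.9%, 9.08% and 17.3% of LEF1-only sites, against 8.12%, 10.2% and 14.1% of all sites. The own class was thus not always above the share over all sites. On the other class the means were 4.66% to 8.36% for β-catenin and 4.17% to 5.95% for LEF1.

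**Figure D5:**
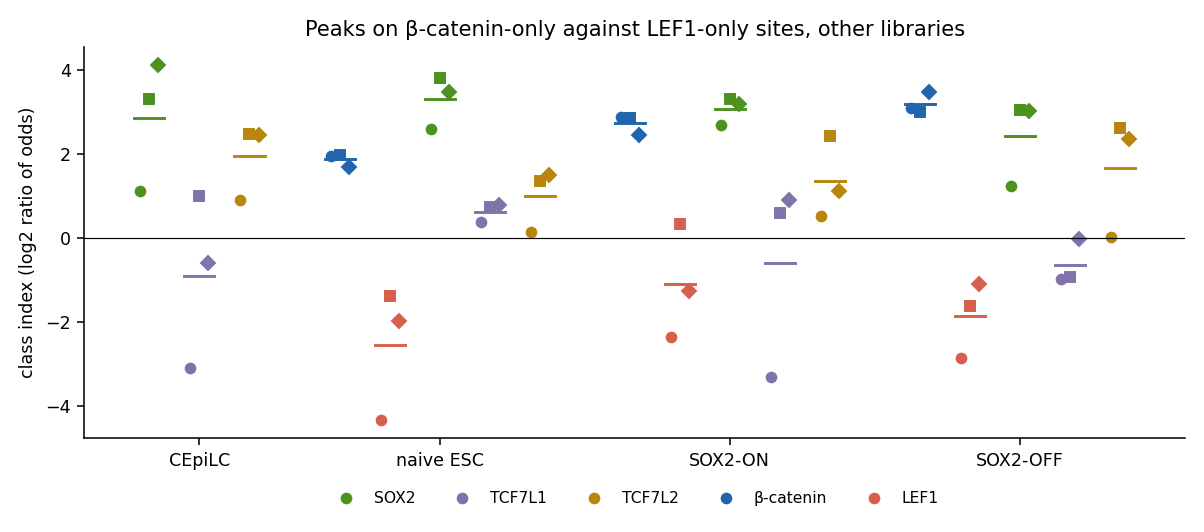
Class index (vertical axis, log2 ratio of odds) of each library that was not used to define the classes, by condition and protein; points are libraries, short lines are means, and values above 0 mean more overlap with β-catenin-only sites. In naive ESCs, SOX2-ON and SOX2-OFF cells the β-catenin libraries lie at 1.70 to 3.48 and the LEF1 libraries at −4.34 to 0.32.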

How the data were processed

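Chromatin was crosslinked with DSG and formaldehyde, immunoprecipitated and sequenced as single-end 76-base reads. According to the study's methods, reads were aligned with BWA and peaks called by the authors with MACS2 for each library on mm10 at a q-value of 0.05. The deposited lists hold, per peak, a score (10 times the −log10 q-value, tested here), a fold enrichment at the summit, and −log10 p- and q-values. Which input was used for which library is not given in the sources used here, and read depth is unknown.

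Each list was shortened to 4443 peaks by −log10 p. Intervals sharing at least 1 bp were merged, and sites were assigned to the nearest start of a protein-coding gene (GENCODE M21). Sequences were read from GRCm38 on both strands. The promoter window was 1 kb. Differences between libraries were tested by exact permutation, adjusted by Benjamini-Hochberg. Functions were tested on simulated lists. Analyses used Python 3.11.15, pandas 2.3.3 and pysam 0.24.0. Sites named were the 8 best per class by their lowest-placed peak, one-protein classes among strict sites, up to 8 members per gene list by their best shared site, and list members with a one-protein site. The 8 forms of the TCF sequence and the 5 recurring words (the 10-letter words at the largest numbers of strict LEF1-only sites, those with TCF letters left out) were examined after the windows had been read. Members, lists and tests were chosen with earlier results of these data known. Alternatives were shorter and longer lists, other thresholds, overlaps, windows and libraries left out. Some windows are not reported here.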

Additional observations from a re-analysis of the deposited data

How the results depend on the processing

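The 1622 shared, 280 β-catenin-only and 279 LEF1-only sites became 856, 118 and 160 with 2000 peaks a library and 2621, 846 and 148 with all peaks. With up to 10000 peaks, β-catenin-only sites numbered 746. With peaks in at least 2 of 3 libraries required, the counts were 2609, 758 and 775, and with absence from the full lists of the other protein 64 and 47. Without LEF1 replicate 1 and with lists of 10930 peaks, chosen after seeing the data, they were 3362, 875 and 667. With libraries left out, and the rule looser because it was applied to those remaining, they ran from 1670 to 2004, from 383 to 590 and from 317 to 588. The promoter difference turned from −1.09 to 3.81 with up to 10000 peaks and 7.11 with all peaks, and ran from −1.97 to −0.326 with libraries left out. The differences in the TCF sequence (−13.6 to −6.85 percentage points), in its CTTTGATC form (−9.0 to −7.6), in the Jaccard index (0.0451 to 0.12) and in the class index (3.12 to 5.05) kept their direction under every alternative run. The class index was 4.44 in naive ESCs, 3.84 in SOX2-ON and 5.05 in SOX2-OFF cells alone, where p cannot go below 0.1.

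With all peaks of the other proteins, the share of β-catenin-only minus that of LEF1-only sites went from 25.4 to 38.9 percentage points for SOX2 and from 21.5 to 13.8 for TCF7L2. For TCF7L1 it was −4.24, and from −11.9 to 1.89 with a replicate left out. Of the genes of the 7 lists, 17 had a β-catenin-only site (32 with all peaks) and 7 a LEF1-only site (1 with 2000 peaks). The causes of these shifts were not tested, beyond the number of peaks and libraries that each alternative itself sets.

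Replicate numbers are shared by the proteins. Deviations of same-numbered libraries correlated at 0.158, 0.0502 and 0.14, not all above 0.1, so the numbers were not taken to pair the samples, although each library correlated best with its own number. With the replicate block, the exact sign-flip p was 0.25 for the TCF sequence (−9.82 percentage points), the smallest that 3 pairs allow, and 0.5 for promoters (−1.09). For the class index (4.44), with 9 pairs, it was 0.0039, again the smallest possible.

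A peak list gives no depth, so a site outside a list is not shown to be unoccupied, and β-catenin is compared with LEF1 by rank alone. The libraries of a group come from 1 cell line, and an antibody cannot be told apart from the protein it binds.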
